A study of Homo sapiens with 4 samples.

Results

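The proteasome subunits and assembly factors described here are 45 of the genes of the count table whose symbol is PSMA, PSMB, PSMC, PSMD, PSME, PSMF or PSMG followed by a number. The table holds 15575 genes in all. U251 cells, an established human glioblastoma (GBM) line, were transduced with lentiviral control shRNA (Ctrl, 2 libraries) or lentiviral shRNA against PRMT3 (PRMT3-KD, 2 libraries), and total RNA was sequenced after 72 h. PRMT3 is a protein arginine methyltransferase, and the comparison asks which transcripts differ when its expression is reduced. Both groups carry a lentivirus and an shRNA, and all 4 libraries come from 1 cell line. The labels do not say that the libraries of a group came from separate cultures, so the p-values measure only the spread between these libraries, which may be technical. The paper used 2 shRNAs against PRMT3 in U251 cells. Neither it nor the labels say which of them each PRMT3-KD library carried.

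The proteasome is the protease that degrades proteins tagged with ubiquitin in the cytosol and nucleus. Its core particle is a barrel of alpha rings, which gate the entry, and beta rings, which hold the catalytic sites. A regulatory particle caps the barrel: its base contains the ATPases that unfold the substrate, and its lid removes the ubiquitin chain. Alternative activators can take the place of the regulatory particle, inducible beta subunits can replace the catalytic ones in immune or interferon-treated cells, and dedicated chaperones assemble the parts. Proliferating tumour cells, glioblastoma cells among them, depend on this protease, and transcription factors of the NFE2L1 family raise expression of its genes together when its activity is low.

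Total counts lay between 24804250 and 29756313 per library. PRMT3 itself had 535 counts in each Ctrl library against 77 and 45 after knockdown, a log2 fold change of -3.08 ± 0.314 (SE; edgeR quasi-likelihood test with Benjamini-Hochberg adjustment, adjusted p = 0.0177). The Ctrl libraries were close to each other, whereas the PRMT3-KD libraries differed far more. Chi-square divided by its degrees of freedom, which is near 1 for sampling noise alone, was 1.42 between the Ctrl libraries (13074 genes) and 66.4 between the PRMT3-KD libraries (13066 genes), and over the 45 proteasome genes it was 1.44 and 60.9. Of 8 glial and GBM markers 7 had a row, with a summed level of 8478 to 8498 CPM (counts scaled to a common library size of 1e6 after TMM normalization) in Ctrl and 7513 to 7913 CPM in PRMT3-KD, most of it from VIM. GFAP, the defining astrocyte filament, was low at 13.1 and 14.3 CPM in Ctrl and 1.26 and 5.39 CPM in PRMT3-KD, but was not called (edgeR adjusted p = 0.0958). Of the other abundant glial markers, VIM and SOX2 were below Ctrl in both knockdown libraries (VIM at 5399 and 5389 CPM, then 4453 and 5092 CPM), EGFR was above in both (169 and 166 CPM, then 195 and 176 CPM), and NES (786 and 779 CPM, then 459 and 826 CPM) and CD44 overlapped between the groups. Of 6 immune markers 3 had a row, with summed levels of 5.52 and 5.53 CPM in Ctrl and 2.72 and 3.73 CPM in PRMT3-KD, and PTPRC, which marks all leukocytes, was at 0.246 CPM or less. Of 4 endothelial markers 2 had a row, summing to 7.38 and 7.40 CPM in Ctrl and to 6.26 and 27.9 CPM in PRMT3-KD. Of 4 neuronal markers 3 had a row, summing to 14.0 and 14.5 CPM in Ctrl and to 19.3 and 16.8 CPM in PRMT3-KD.

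All 45 genes passed the filter on low counts. The edgeR estimate was within 1.2-fold of Ctrl in 37 of the 45 genes, against 45.4% of all genes tested. Relative to the Ctrl mean, the median log2 value of the 45 was 0.02 in the first knockdown library and -0.16 in the second. At adjusted p under 0.05, edgeR called 5 genes. PSMD2, PSMD1, PSMD3 and PSMA2 fell, and PSME4 rose. PSMD2 and PSMD1 are the large scaffold subunits of the base, PSMD3 is a structural lid subunit, PSMA2 is an alpha-ring subunit, and PSME4 is an alternative activator of the core particle. Among all 13172 genes tested, 17.3% were called, against 11.1% of the proteasome genes. By direction, 8.39% of all genes were called higher and 8.91% lower. Since these are shares of the RNA of a whole culture, fewer cells with a transcript and less of it per cell cannot be told apart.

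The RefSeq promoter windows of the 5 called genes are shown because a shared promoter element is the known route by which proteasome genes are raised together. Each window runs from 250 bases before to 50 bases after the transcription start, 5′ to 3′ on the gene's strand, in GRCh38.p14. Capitals mark the antioxidant response element core TGACNNNGC, which NFE2L1 and its relatives bind, and the CCAAT box, each searched on both strands. The 2 motifs overlapped in 0 windows. The windows lie at chr3:184298991-184299290 (plus strand, PSMD2), chr17:39980557-39980856 (plus strand, PSMD3), chr7:42932125-42932424 (minus strand, PSMA2), chr2:231056617-231056916 (plus strand, PSMD1) and chr2:53970944-53971243 (minus strand, PSME4). RefSeq gives PSMD2 another start further downstream, and that window held neither motif.
PSMD2: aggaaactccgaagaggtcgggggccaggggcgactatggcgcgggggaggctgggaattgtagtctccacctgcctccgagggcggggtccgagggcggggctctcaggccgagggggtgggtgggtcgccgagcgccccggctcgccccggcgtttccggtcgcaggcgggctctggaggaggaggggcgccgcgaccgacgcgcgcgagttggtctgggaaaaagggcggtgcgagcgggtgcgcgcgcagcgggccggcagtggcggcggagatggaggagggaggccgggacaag
PSMD3: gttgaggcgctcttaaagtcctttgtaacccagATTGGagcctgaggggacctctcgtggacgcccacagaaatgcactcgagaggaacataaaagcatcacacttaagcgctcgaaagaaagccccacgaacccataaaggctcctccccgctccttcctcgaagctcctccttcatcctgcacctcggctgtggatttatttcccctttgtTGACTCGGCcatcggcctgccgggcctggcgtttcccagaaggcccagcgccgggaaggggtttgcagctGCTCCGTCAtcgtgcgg
PSMA2: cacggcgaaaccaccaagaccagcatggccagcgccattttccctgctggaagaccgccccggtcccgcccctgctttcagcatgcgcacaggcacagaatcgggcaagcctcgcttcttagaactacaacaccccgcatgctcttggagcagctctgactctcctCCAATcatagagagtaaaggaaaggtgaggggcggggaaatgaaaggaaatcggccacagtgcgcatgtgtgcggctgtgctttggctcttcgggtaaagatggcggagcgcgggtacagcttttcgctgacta
PSMD1: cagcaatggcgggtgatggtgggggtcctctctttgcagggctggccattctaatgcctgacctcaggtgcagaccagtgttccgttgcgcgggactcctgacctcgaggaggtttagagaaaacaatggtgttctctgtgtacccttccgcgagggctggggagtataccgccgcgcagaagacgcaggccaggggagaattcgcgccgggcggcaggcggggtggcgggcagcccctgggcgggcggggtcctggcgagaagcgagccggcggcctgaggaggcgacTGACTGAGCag
PSME4: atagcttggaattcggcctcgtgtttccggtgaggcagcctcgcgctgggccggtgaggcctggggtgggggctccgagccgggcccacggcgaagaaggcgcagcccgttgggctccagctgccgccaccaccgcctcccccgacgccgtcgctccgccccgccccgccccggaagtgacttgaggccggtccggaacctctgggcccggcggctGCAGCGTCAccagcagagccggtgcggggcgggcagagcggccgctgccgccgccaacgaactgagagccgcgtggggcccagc

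PSMD3 held 2 copies of the response element core and 1 CCAAT box, PSMD1 and PSME4 held 1 copy of the core each, PSMA2 held 1 CCAAT box, and PSMD2 held neither. The core was thus found in genes that fell and in the gene that rose. Of the 39 proteasome genes with a window, 14 (35.9%) held the core, against 19.2% of 10103 tested genes with a window and 13.3% of all 35116 windows. A CCAAT box was found in 18 of the 39 (46.2%), against 43.8% of the tested genes and 34.6% of all windows. Besides PSMD3, PSMD1 and PSME4, the genes with the core were PSMA4, PSMB3, PSMC4, PSMC5, PSMD12, PSMD5, PSMD9, PSME1, PSME2, PSMG1 and PSMG2, which belong to every role except the inducible beta subunits. A match of letters is a description of the sequence and does not show that a factor binds there. In the 5 windows printed, GC content ranged from 58.0% for PSMD3 and PSMA2 to 75.3% for PSME4.

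In the base, which docks on the core particle, PSMD2 had the highest level of all 45 genes before any scaling by length. PSMD2 (ENSG00000175166, chr3:184016986-184026838 in GRCh37, plus strand, 21 exons) binds ubiquitin-like domains of shuttle proteins. It was measured at 668.7 and 654.7 CPM in Ctrl and at 450.6 and 431.2 CPM in PRMT3-KD. Both PRMT3-KD libraries lay far below both Ctrl libraries, and the gap within either group was small beside the gap between them. The mean fell from 662 ± 9.86 CPM to 441 ± 13.7 CPM (SD, n = 2 each). On the log2 scale the change was -0.59 ± 0.070 (SE), with an edgeR adjusted p of 0.0198. That p was 0.297 without Ctrl replicate 1 and 0.273 without Ctrl replicate 2. PSMD2 alone passed an added threshold of 1.5-fold, which 5.97% of all genes passed in the lower direction. It did so narrowly: its estimate was under 1.5-fold with DESeq2, DESeq2 size factors or upper-quartile factors (-0.58 in each), while with library totals PSMD3 passed as well (-0.60, edgeR adjusted p = 0.0373). Leaving out 1 library also moved both estimates. PSMD2 was at -0.57 or -0.60 without Ctrl replicate 1 or 2, and at -0.62 or -0.56 without PRMT3-KD replicate 1 or 2. For PSMD3 these values were -0.59, -0.56, -0.64 and -0.51. No proteasome gene passed it in the higher direction (0 of 45; 4.97% of all genes).

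PSMD1 (ENSG00000173692, chr2:231921559-232037830, plus strand, 25 exons), the other large scaffold of the base, was measured at 214.8 and 214.6 CPM in Ctrl and at 170.1 and 175.7 CPM in PRMT3-KD. The groups did not overlap. The log2 fold change was -0.31 ± 0.067 (SE, edgeR adjusted p = 0.0468), the smallest of the 5 changes and the one nearest to the threshold. PSMD1 missed the threshold in DESeq2 (adjusted p = 0.0693) and with library totals in place of TMM scaling (edgeR adjusted p = 0.0513). It also missed it with all genes of at least 1 count tested (edgeR adjusted p = 0.0550). So it did with a block for the replicate number (edgeR adjusted p = 0.122). Without Ctrl replicate 1 or Ctrl replicate 2 its edgeR adjusted p was 0.543 and 0.544. HTR2B overlaps PSMD1 on the other strand, and the methods do not say whether strand was used in counting.

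The ATPases PSMC1 to PSMC6, which form the ring that unfolds substrates, gave 0 calls among 6 genes by edgeR, with 1 of the 6 at an unadjusted p under 0.05. Over all genes tested, these shares were 17.3% and 37.6%. limma-voom with a weight for each group called PSMC5 as well, and DESeq2 called 0 of the 6. PSMC5 was measured at 173.9 and 171.2 CPM in Ctrl and at 148.6 and 129.8 CPM in PRMT3-KD, with both PRMT3-KD values lower than both Ctrl values. PSMC4 went from 130.7 and 128.9 CPM in Ctrl to 166.7 and 126.3 CPM in PRMT3-KD, on both sides of the Ctrl values. PSMC2 had 241.3 and 238.7 CPM in Ctrl and 262.9 and 246.1 CPM in PRMT3-KD, slightly above in both. The ubiquitin receptor PSMD4 had 136.5 and 136.4 CPM in Ctrl and 168.2 and 135.0 CPM in PRMT3-KD, again with 1 PRMT3-KD library high and the other at the Ctrl level. Over the 9 base genes the median log2 fold change was -0.09. The base median over the Ctrl mean was -0.01 in the first knockdown library and -0.17 in the second. Summed, the base genes had 2086 and 2070 CPM in Ctrl and 1899 and 1698 CPM in PRMT3-KD.

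**Figure D1:**
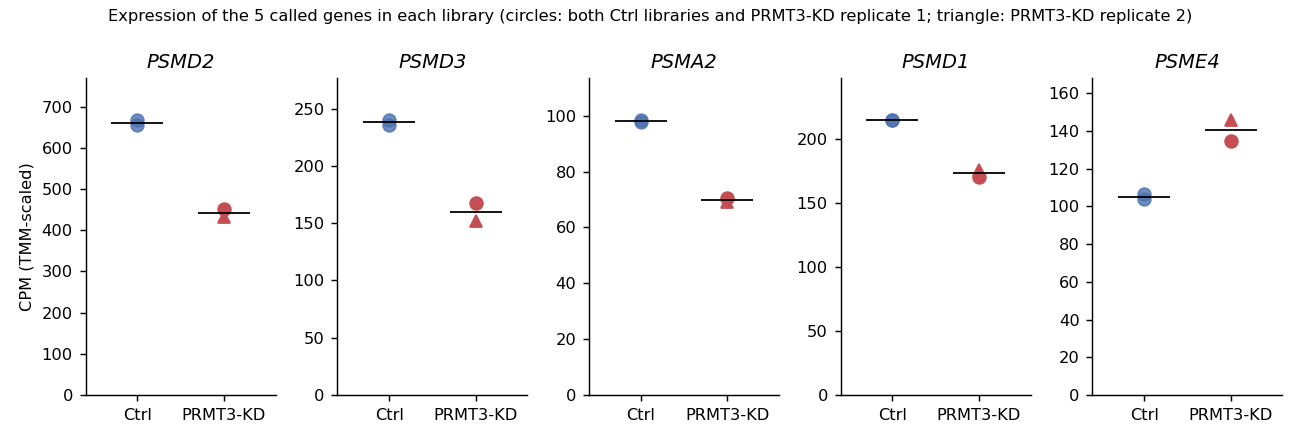
Expression of the 5 called genes in TMM-scaled CPM (vertical axes from 0) in each Ctrl library (blue circles) and PRMT3-KD library (red, circle for replicate 1 and triangle for replicate 2), with the group means as lines. PSMD2, PSMD3, PSMA2 and PSMD1 lie lower and PSME4 lies higher after knockdown, with no overlap between the groups.

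In the lid, 1 of 8 genes was called, beside 17.3% of all genes tested. PSMD3 (ENSG00000108344, chr17:38137060-38154212 in GRCh37, plus strand, 12 exons) is a scaffold subunit of the lid. It was measured at 235.8 and 240.5 CPM in Ctrl and at 167.7 and 152.1 CPM in PRMT3-KD. Both knockdown values were well below the Ctrl values, with the second library lower than the first. The log2 fold change was -0.57 ± 0.081 (SE, edgeR adjusted p = 0.0232). The adjusted p was 0.281 without Ctrl replicate 1 and 0.298 without Ctrl replicate 2. Neither PSMD2 nor PSMD3 overlaps the exons of another annotated gene or has an annotated pseudogene under its symbol.

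The remaining 7 lid genes were not called. PSMD11, a scaffold subunit of the lid, had 179.2 and 180.5 CPM in Ctrl and 157.6 and 155.1 CPM in PRMT3-KD, a gap that was the same in both knockdown libraries but small. PSMD14, the metalloprotease that cuts the ubiquitin chain off the substrate, had 108.3 and 109.0 CPM in Ctrl and 111.8 and 91.9 CPM in PRMT3-KD, on both sides of the Ctrl values. PSMD12 had 109.3 CPM in both Ctrl libraries and 130.7 and 113.7 CPM in PRMT3-KD. The lid thus held genes with values on either side of Ctrl, and its median log2 fold change was -0.04. Relative to the Ctrl mean, the lid median was 0.07 in the first knockdown library and -0.15 in the second.

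In the core particle, 1 of 7 alpha-ring genes and 0 of 7 constitutive beta-ring genes were called, beside 17.3% of all genes tested. PSMA2 (ENSG00000106588, chr7:42956427-42971784 in GRCh37, minus strand, 8 exons) was measured at 97.9 and 98.6 CPM in Ctrl and at 70.6 and 69.2 CPM in PRMT3-KD. The libraries of each group nearly coincided, and the groups stood apart. The log2 fold change was -0.49 ± 0.069 (SE, edgeR adjusted p = 0.0231). Leaving out Ctrl replicate 1 or 2 raised the edgeR adjusted p to 0.352 or 0.353. PSMA2 overlaps a readthrough gene on its own strand (ENSG00000256646) and another gene on the other strand, and 3 pseudogenes carry its symbol, so the counting step could have divided its reads.

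The other alpha subunits lay on both sides of Ctrl. PSMA1 had 139.7 and 133.4 CPM in Ctrl and 109.6 and 115.6 CPM in PRMT3-KD, below in both but not called. PSMA6 had 94.1 and 91.3 CPM in Ctrl and 108.2 and 99.6 CPM in PRMT3-KD, above in both but not called. PSMA7 had 240.0 and 241.4 CPM in Ctrl and 240.3 and 195.6 CPM in PRMT3-KD, where the second knockdown library alone was low. The alpha-ring median was -0.09 on the log2 scale. Over the Ctrl mean it was -0.002 in the first knockdown library and -0.15 in the second.

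Of the constitutive beta subunits, PSMB5, PSMB6 and PSMB7 carry the chymotrypsin-like, caspase-like and trypsin-like active sites. PSMB6 differed most in size among the 7, with 124.6 and 125.2 CPM in Ctrl and 120.7 and 99.1 CPM in PRMT3-KD (log2 fold change -0.18 ± 0.116 (SE), edgeR adjusted p = 0.313). Its estimate was -0.33 without PRMT3-KD replicate 1 (edgeR adjusted p = 2.42e-09) and -0.05 without PRMT3-KD replicate 2 (edgeR adjusted p = 0.182). PSMB5 had 92.1 and 90.1 CPM in Ctrl and 108.2 and 94.5 CPM in PRMT3-KD. PSMB7 had 118.8 and 120.1 CPM in Ctrl and 128.3 and 115.7 CPM in PRMT3-KD. In each of these 3 the group means differed by less than the gap between the knockdown libraries. PSMB2 was the flattest of the ring, with 263.0 and 247.3 CPM in Ctrl and 256.9 and 253.4 CPM in PRMT3-KD. edgeR called 0 of the 7, with 0 at an unadjusted p under 0.05, and DESeq2 and limma-voom called 0 as well. Over all genes tested, edgeR called 17.3%, and 37.6% had an unadjusted p under 0.05.

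The inducible catalytic subunits were the least abundant of the beta ring, in CPM and per length. PSMB8, the inducible counterpart of PSMB5, had 18.3 and 21.0 CPM in Ctrl and 22.4 and 24.2 CPM in PRMT3-KD. Both knockdown values were above both Ctrl values (log2 fold change 0.25 ± 0.117 (SE), edgeR adjusted p = 0.207). The lower knockdown value cleared the higher Ctrl value by less than the gap between the Ctrl libraries. Over the alternative fits its estimate lay between 0.15, without Ctrl replicate 1, and 0.35, without Ctrl replicate 2, and it was called without PRMT3-KD replicate 1 (edgeR adjusted p = 0.000895). PSMB8 overlaps an antisense gene, PSMB8-AS1, whose reads could not be told apart without strand. PSMB10, the counterpart of PSMB7, had 20.5 and 21.0 CPM in Ctrl and 21.8 and 17.8 CPM in PRMT3-KD, with the groups overlapping. PSMA8 and PSMB11, the testis and thymus subunits, had no row in the count table.

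Among the activators and the inhibitor, PSME4 was the one gene called of 5, and the only proteasome gene called higher. Of all genes tested, 17.3% were called in either direction and 8.39% were called higher. PSME4 (ENSG00000068878, chr2:54091206-54198130 in GRCh37, minus strand, 47 exons) encodes a large monomeric activator that opens the core particle without ATP and is known for the degradation of acetylated histones. It was measured at 103.8 and 106.6 CPM in Ctrl and at 134.8 and 146.0 CPM in PRMT3-KD. The second knockdown library, which was the lower one for most proteasome genes, was here the higher. The mean rose from 105 ± 1.95 CPM to 140 ± 7.87 CPM (SD, n = 2 each). The log2 fold change was 0.42 ± 0.078 (SE, edgeR adjusted p = 0.0362). A block for the replicate number, which the labels do not say pairs the libraries, ended the call (edgeR adjusted p = 0.0679). Without Ctrl replicate 1 or Ctrl replicate 2 the edgeR adjusted p was 0.457 and 0.419. PSME4 overlaps ACYP2 on the other strand.

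PSME1 and PSME2, which form the interferon-inducible activator ring, and PSME3, which forms its nuclear relative, were not called. PSME1 had 37.8 and 35.9 CPM in Ctrl and 31.6 and 37.4 CPM in PRMT3-KD, and PSME2 had 61.4 and 65.5 CPM in Ctrl and 66.4 and 56.9 CPM in PRMT3-KD. PSME3 had 155.5 and 155.2 CPM in Ctrl and 158.0 and 143.2 CPM in PRMT3-KD. All 3 overlapped between the groups. PSMF1, an inhibitor of the core particle, had 97.4 and 100.9 CPM in Ctrl and 90.8 and 86.5 CPM in PRMT3-KD, below in both knockdown libraries but not called.

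The 7 assembly factors gave 0 calls by edgeR, with 1 at an unadjusted p under 0.05, and 0 by DESeq2 and by limma-voom. Over all genes tested, edgeR called 17.3%, and 37.6% had an unadjusted p under 0.05. PSMD10, the oncoprotein gankyrin, which chaperones the ATPase ring, had 57.7 and 52.7 CPM in Ctrl and 42.2 and 43.4 CPM in PRMT3-KD. Its groups did not overlap, and at a log2 fold change of -0.37 ± 0.087 (SE) it narrowly missed the threshold (edgeR adjusted p = 0.0548). Its estimate was -0.34 or -0.39 without PRMT3-KD replicate 1 or 2, and -0.30 or -0.43 without Ctrl replicate 1 or 2. It passed the threshold only in the fits without a PRMT3-KD library. PSMD10 has 3 annotated pseudogenes. PSMG3, one of the chaperones of the alpha ring, had 35.8 and 37.8 CPM in Ctrl and 52.6 and 32.7 CPM in PRMT3-KD. Its knockdown libraries were further apart than those of any other proteasome gene, a log2 difference of -0.69 between the second and the first. PSMG4, which works with PSMG3, had 19.7 and 18.2 CPM in Ctrl and 20.7 and 16.4 CPM in PRMT3-KD, on both sides of Ctrl.

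**Figure D2:**
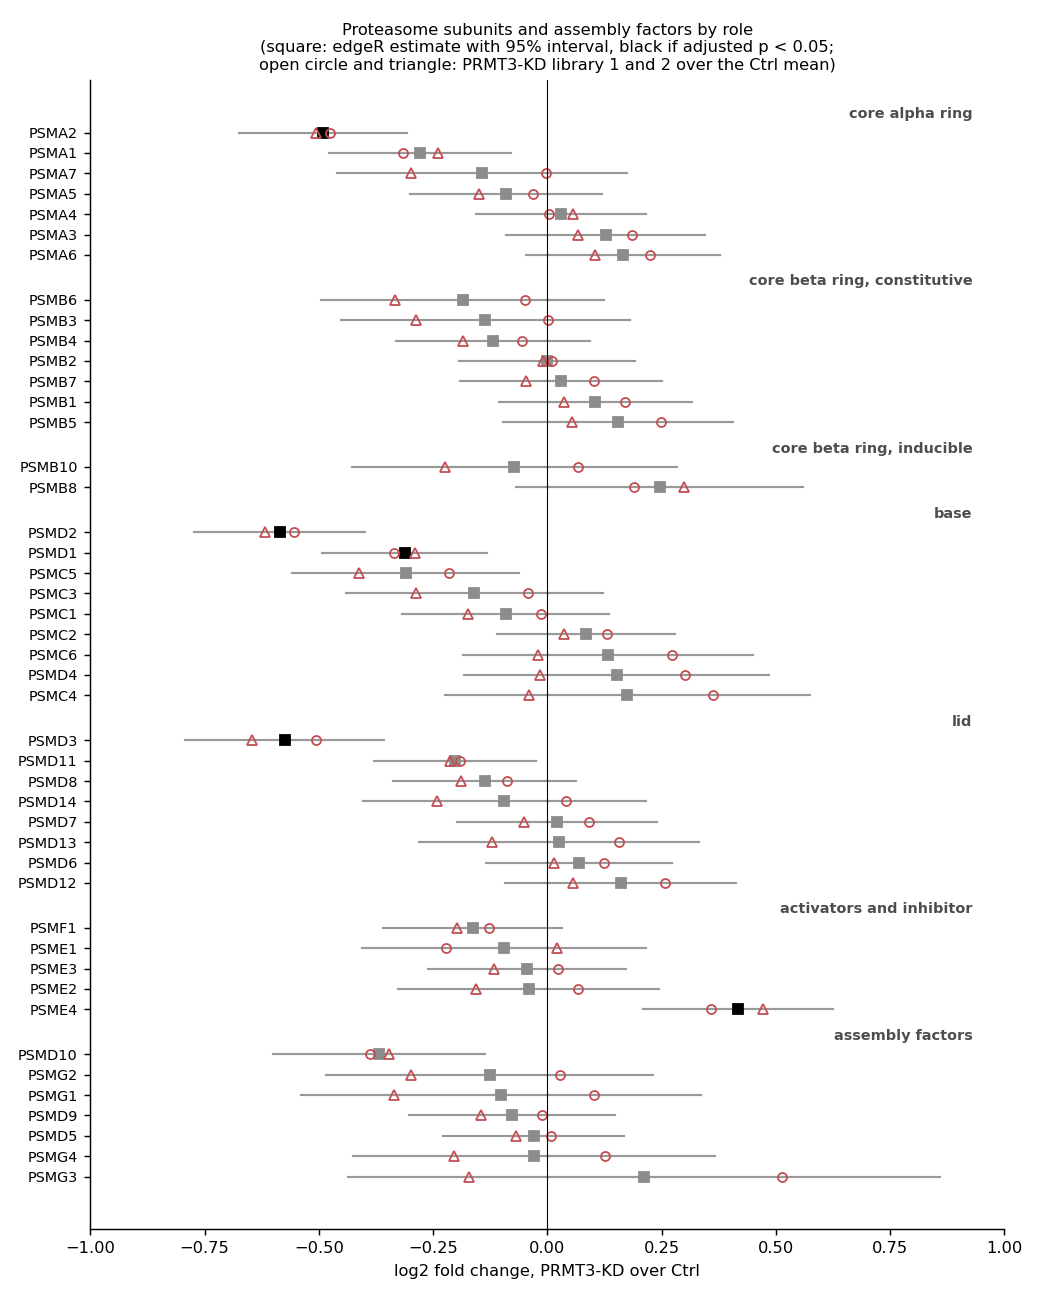
Log2 fold change of PRMT3-KD over Ctrl (horizontal axis) for the 45 proteasome genes grouped by role, with the edgeR estimate and its 95% interval (square and line, black where adjusted p was under 0.05) and each PRMT3-KD library over the Ctrl mean (open circle for replicate 1, open triangle for replicate 2). The called genes PSMD2, PSMD3, PSMA2, PSMD1 and PSME4 have both knockdown libraries on the same side of 0, whereas genes such as PSMG3 and PSMC4 have them on both sides. The test itself favours genes whose libraries agree. Among the 40 genes not called, both knockdown libraries were above both Ctrl libraries in 7 and below both in 11.

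Across the 45 genes, the changes had a narrow spread. The median log2 fold change was -0.07, against 0.01 over all genes tested, and the SD over genes was 0.208, against 0.558. In 37 of the 45 genes (82.2%) the estimate was within 1.2-fold, which held for 45.4% of all genes. The proteasome genes were also more abundant and more precisely measured than most, with a median of 115 CPM in Ctrl against 28.5 CPM over all genes, and a median SE of 0.084 against 0.135. These shares were therefore not taken over genes of like level. At an unadjusted p under 0.05 there were 9 of the 45 proteasome genes, against 37.6% of all genes. For the 40 genes not called, the 95% intervals lay between -0.60 and 0.86 on the log2 scale, the upper end being that of PSMG3.

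Both PRMT3-KD libraries were above both Ctrl libraries in 8 proteasome genes, where 33.3% of all genes were, and below both in 15, where 33.8% of all genes were. In the other 22 genes the groups overlapped. The summed level of the 45 genes was 6085 and 6054 CPM in Ctrl and 5885 and 5345 CPM in PRMT3-KD. Without the 5 called genes the sums were 4764 and 4739 CPM in Ctrl and 4891 and 4371 CPM in PRMT3-KD, so the remaining 40 genes together lay above Ctrl in one knockdown library and below it in the other.

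**Figure D3:**
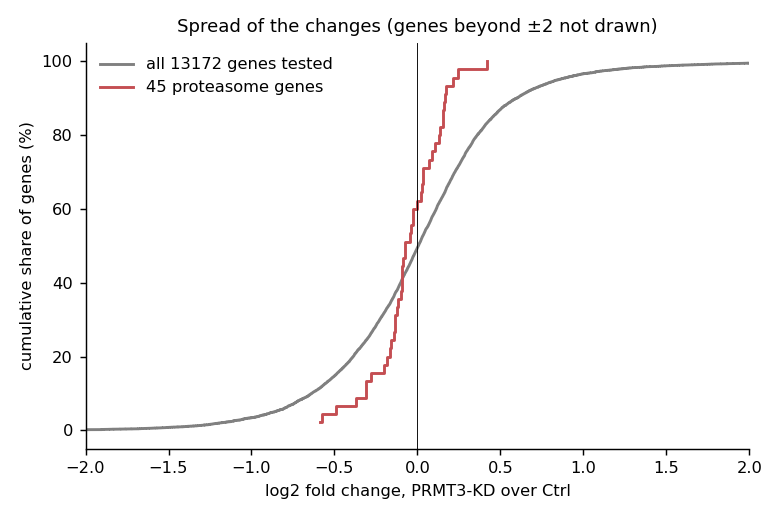
Cumulative share of genes (vertical axis, percent) against the log2 fold change of PRMT3-KD over Ctrl (horizontal axis) for the 45 proteasome genes (red) and all 13172 genes tested (grey). The red curve is steeper around 0, with 82.2% of the proteasome genes within 1.2-fold against 45.4% of all genes.

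The PRMT3-KD libraries differed from each other in most proteasome genes. The second was below the first in 38 of 45 genes, against 53.6% of all genes, and the median log2 difference between them was -0.14, against -0.03 over all genes. All 7 constitutive beta-ring genes, all 8 lid genes and all 6 ATPases were lower in the second library, and so were 8 of the 9 base genes. Relative to the Ctrl mean, the median of the 45 genes was 0.02 in the first library and -0.16 in the second. When libraries were scaled by their totals alone, the second was lower in 42 of 45 genes, against 64.7% of all genes. Between the Ctrl libraries the second was below the first in 23 of the 45. The endothelial gene CDH5 also set the second knockdown library apart, at 25.4 CPM there against 5.05 to 5.31 CPM in the other libraries. VWF, the other endothelial gene with a row, had 2.35 and 2.07 CPM in Ctrl and 1.18 and 2.46 CPM in PRMT3-KD. The part of either in these differences was not tested.

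The calls depended on which libraries set the spread. Without either Ctrl library, edgeR called 0 of the 45 genes and 0 of the 13402 or 13420 genes tested, with 3 proteasome genes at an unadjusted p under 0.05 in either case. Without PRMT3-KD replicate 1, 30 of the 45 were called (3 higher, 27 lower) beside 65.9% of all genes, and without PRMT3-KD replicate 2, 26 were called (15 higher, 11 lower) beside 65.6%. In these fits the single library left in a group was assumed to vary like the other group, so the spread came from the PRMT3-KD libraries alone in the first case and from the Ctrl libraries alone in the second. For a single gene, the smallest two-sided p that exact permutation of the 4 libraries can give is 0.333. The estimates of the 5 called genes moved little: over all fits, the log2 fold change lay between -0.62 and -0.56 for PSMD2, between -0.64 and -0.51 for PSMD3, between -0.52 and -0.48 for PSMA2, between -0.34 and -0.29 for PSMD1, and between 0.35 and 0.48 for PSME4.

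Levels of different subunits were compared as CPM per kb of the annotated canonical transcript. In Ctrl they ranged from 12.2 CPM per kb for PSMF1 to 250.2 CPM per kb for PSMA7, with a median of 69.3 CPM per kb. After PSMA7 came PSMD2 at 227 CPM per kb and PSMB1 at 208 CPM per kb. The constitutive beta ring had the highest median of the roles, at 129 CPM per kb, and its subunits lay within 3.60-fold of each other, from PSMB2 at 57.7 to PSMB1 at 208 CPM per kb. The inducible subunits were far lower than the subunits they replace: PSMB8 was at 17.5 CPM per kb beside 87.2 CPM per kb for PSMB5, and PSMB10 was at 21.3 CPM per kb beside 121 CPM per kb for PSMB7. The assembly factors lay between 20.4 CPM per kb for PSMD5 and 37.5 CPM per kb for PSMD10.

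PSME4 was among the lowest per length, at 14.5 CPM per kb over a transcript of 7250 bases, although its 105 CPM lay near the median of the 45 genes. These ranks depend on the transcript model, and scaling by the coding length instead put PSMB2 first at 421 CPM per coding kb and moved PSMF1 from rank 45 to rank 22. By either length, PSMA7, PSMB1 and PSMD2 were among the 4 highest, and PSME4, PSMB8 and PSMB10 were among the 5 lowest.

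**Figure D4:**
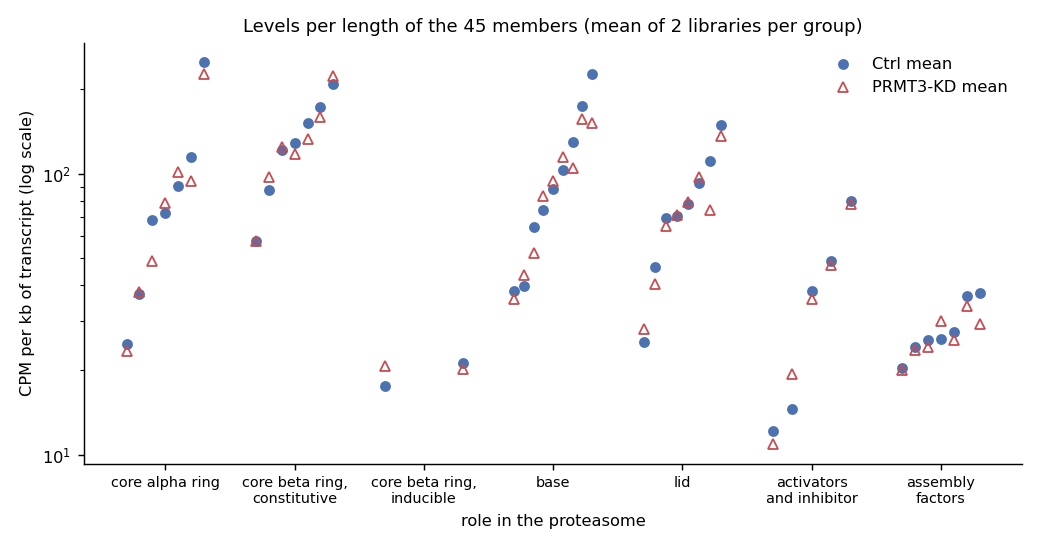
Level per length of each of the 45 genes (vertical axis, CPM per kb of transcript, log scale) by role (horizontal axis), as the mean of 2 Ctrl libraries (blue circles) and of 2 PRMT3-KD libraries (red triangles). The inducible beta subunits, at 17.5 and 21.3 CPM per kb in Ctrl, lie below every constitutive beta subunit.

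Of 15 genes for proteins that work with the proteasome but carry other symbols, 3 fell and 1 rose by edgeR. The share called was 26.7%, beside 17.3% of all genes (8.91% lower and 8.39% higher). POMP, the maturation factor that the beta ring needs for its assembly, had 62.8 and 61.4 CPM in Ctrl and 38.7 and 35.7 CPM in PRMT3-KD (log2 fold change -0.74 ± 0.084 (SE), edgeR adjusted p = 0.0192). RAD23B and UBQLN4 are shuttles that bring ubiquitinated proteins to the proteasome, and both fell. The related UBQLN1 (log2 fold change -0.006, edgeR adjusted p = 0.964) and UBQLN2 (-0.24, edgeR adjusted p = 0.146) were not called. RAD23B had 221 CPM in both Ctrl libraries and 149 and 162 CPM in PRMT3-KD (log2 fold change -0.51, edgeR adjusted p = 0.0254), and UBQLN4 had 81.0 and 85.1 CPM in Ctrl and 44.8 and 47.6 CPM in PRMT3-KD (log2 fold change -0.85, edgeR adjusted p = 0.0167). UBE3C, a ubiquitin ligase found on the proteasome, rose from 278 and 272 CPM to 410 and 366 CPM (log2 fold change 0.50, edgeR adjusted p = 0.0322), a call lost when library totals replaced TMM scaling. The median log2 fold change of the 15 was -0.10. Calls among these genes fell without either Ctrl library and rose without either PRMT3-KD library, as they did over all genes.

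In the NFE2L1 axis, 11 genes of the pathway that raises proteasome genes, NFE2L1 had 378 and 380 CPM in Ctrl and 386 and 365 CPM in PRMT3-KD, with the groups overlapping. Its relative NFE2L2, the regulator of the oxidative stress response, fell from 84.6 and 83.7 CPM to 52.3 and 52.4 CPM (log2 fold change -0.68 ± 0.070 (SE), edgeR adjusted p = 0.0177). MAFK, a small partner of these factors on DNA, rose from 67.2 and 68.0 CPM to 98.6 and 94.7 CPM (log2 fold change 0.52 ± 0.071 (SE), edgeR adjusted p = 0.0225). The other 9 genes were not called, and the share called, 18.2%, was near the 17.3% of all genes. Fewer genes of this axis were called without either Ctrl library and more without either PRMT3-KD library, as over all genes. Of 6 genes for ubiquitin and its activating enzymes, edgeR, DESeq2 and limma-voom called 0, with 1 at an unadjusted p under 0.05 in edgeR (UBA6), and their median was 0.01 on the log2 scale. Leaving out either PRMT3-KD library added calls among the 6, as it did over all genes.

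The interferon list is set beside the inducible subunits because interferon induces PSMB8, PSMB10, PSME1 and PSME2. Of its 12 genes 7 rose and 0 fell by edgeR: IFI6, IFIT1, IFIT2, IFIT3, IRF9, ISG15 and OAS2. The share called higher was 58.3%, beside 8.39% of all genes. IFIT2, an antiviral effector, went from 4.58 and 4.87 CPM to 14.0 and 13.0 CPM (log2 fold change 1.51, edgeR adjusted p = 0.0154). IRF9, the DNA-binding part of the interferon-activated complex, went from 11.7 and 10.9 CPM to 23.3 and 17.4 CPM (log2 fold change 0.85, edgeR adjusted p = 0.0429). The log2 estimates of the 4 inducible proteasome genes were 0.25 for PSMB8, -0.07 for PSMB10, -0.10 for PSME1 and -0.04 for PSME2. By edgeR, DESeq2 and limma-voom 0 of them were called, with 0 at an unadjusted p under 0.05 in edgeR. Which of the 4 were called depended on the knockdown library left out. Over the Ctrl mean, the first and second knockdown libraries stood at 0.19 and 0.30 for PSMB8 and 0.07 and -0.22 for PSMB10. They stood at -0.22 and 0.02 for PSME1 and 0.07 and -0.16 for PSME2. On the interferon list, calls fell without either Ctrl library and rose without either PRMT3-KD library, as over all genes. IRF1, a factor that acts on these genes, had 36.4 and 35.8 CPM in Ctrl and 47.3 and 31.2 CPM in PRMT3-KD.

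Other large complexes were measured for comparison. The COP9 signalosome, built on the same plan as the lid, had 2 of 10 genes lower (COPS2 and GPS1) and 0 higher, with a median log2 fold change of -0.09. Those lower calls numbered 0 with library totals and with a block for the replicate number. They numbered 1 with DESeq2 and with all genes of at least 1 count. The translation factor eIF3, also related to the lid, had 1 of 13 genes higher (EIF3J) and 0 lower, with a median of 0.11. The chaperonin CCT had 1 of 8 lower (CCT3, log2 fold change -1.11) and 0 higher, with a median of 0.05. The share called was 20% in the COP9 signalosome, 7.69% in eIF3 and 12.5% in CCT, beside 11.1% in the proteasome and 17.3% of all genes. In each of these complexes fewer genes were called without either Ctrl library and more without either PRMT3-KD library, as over all genes. The estimate was within 1.2-fold in 6 of the 10 COP9 genes, 11 of the 13 eIF3 genes and 7 of the 8 CCT genes, beside 37 of the 45 proteasome genes. The second knockdown library was below the first in 10 of 10, 8 of 13 and 7 of 8 of these genes, beside 38 of 45 proteasome genes. Differences between the complexes were not tested.

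**Figure D5:**
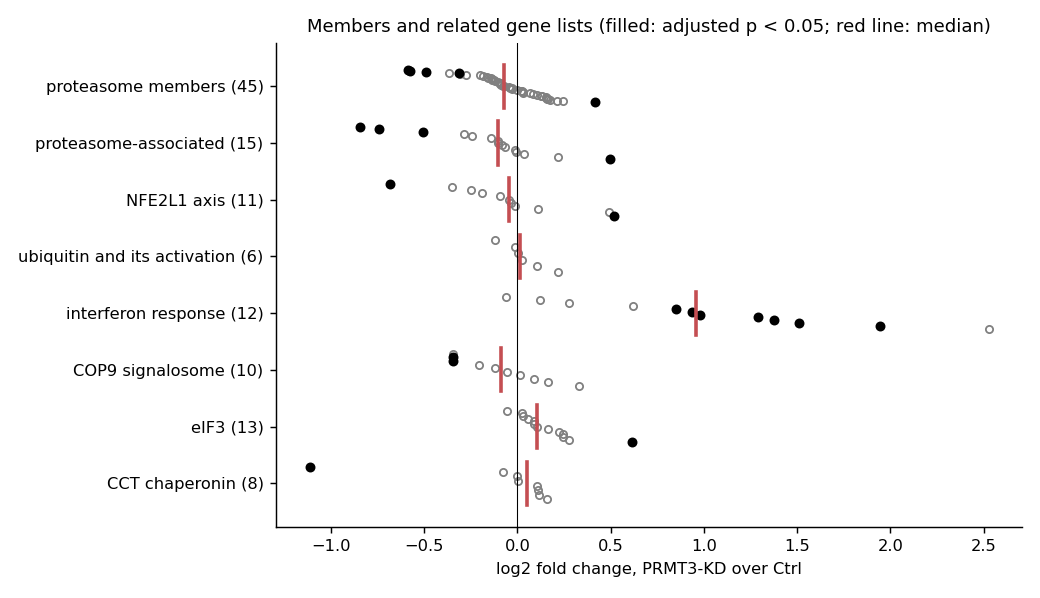
Log2 fold change of PRMT3-KD over Ctrl (horizontal axis) of each gene of the proteasome and of 7 related lists (rows, number of genes in brackets), filled where the edgeR adjusted p was under 0.05, with the median as a red line. Proteasome genes lie between -0.59 and 0.42, and the interferon list has 7 filled points, all above 0.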

How the data were processed

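The authors sequenced total RNA as 2 Ctrl and 2 PRMT3-KD libraries of U251 cells, and groups and replicate numbers were taken from the labels. The authors deposited whole-number read counts per gene, with no normalization. The methods give alignment to hg19 with TopHat and counting with Cufflinks, and the submitters' processing notes also name CASAVA and DESeq2. Versions, the annotation and the use of strand are not given in the sources used here. One identical duplicate of 15576 rows was removed, 15560 of 15575 genes matched GENCODE 44 on GRCh37, and 1 gene that fits the symbol pattern and 1 gene of a related list are not reported here.

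Counts were analysed with edgeR 4.0.16 in R 4.3.3: filterByExpr (minimum count 10, minimum total 15), TMM factors, glmQLFit and glmQLFTest without covariates, and Benjamini-Hochberg adjustment over 13172 genes, with genes called at adjusted p under 0.05. CPM are on the TMM scale, and 95% intervals use the degrees of freedom of the fit. The depth, 24804250 to 29756313 counts per library, limits the precision of low genes. Scripts were tested on simulated data. Alternatives were DESeq2 1.42.0, limma-voom (3.58.1) with group weights, other scalings and filters, a replicate block, a 1.5-fold threshold and leaving out each library. Promoter windows are RefSeq's (GRCh38.p14), and gene positions and lengths are from GENCODE on GRCh37. Figures and sequence searches used Python 3.11.15.

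Statistics are given for called genes and for the gene with the largest change in each role, and values per library for any proteasome gene. The proteasome genes and all lists were chosen with earlier results of these data known.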

Additional observations from a re-analysis of the deposited data

How the results depend on the processing

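The 5 called genes and the other role leaders (PSMB6, PSMB8 and PSMD10) kept the direction of their change in all 12 alternative fits. Calls moved more than estimates. In place of 1 gene called higher and 4 lower, the 1.5-fold threshold left 0 higher and 1 lower. Leaving out one library at a time gave 0 to 15 higher and 0 to 27 lower, the 0 in each case coming from fits without a Ctrl library. The labels do not say that replicate numbers pair the libraries, and the replicate differences of the groups had a correlation of 0.01 across 10556 genes. With the replicate block, 0 genes were called higher and 3 lower, since PSME4 (edgeR adjusted p = 0.0679) and PSMD1 (0.122) missed the threshold, 0 COP9 genes were called lower, and 1656 of 13172 genes were called, against 2278 without it. Across the 12 fits, PSMD1 lost its call in 6, PSME4 in 3, and PSMD2, PSMD3 and PSMA2 in 2 each. DESeq2 called 4 proteasome genes, limma-voom 6, DESeq2 size factors or upper-quartile factors in edgeR 5 each, library totals 4, the filter at 1 count in any library 4, and the filter at 10 counts in every library 5. The adjusted p of PSMD2 ranged from 1.26e-18 to 0.297 and that of PSME4 from 4.53e-13 to 0.457 over these fits. The median log2 fold change of the 45 genes ranged from -0.15 to 0.02. Depth was 24804250 to 29756313 counts per library, which limits genes with few counts. The cause of these differences was not tested beyond the construction of each fit.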
